A study of Mus musculus with 4 samples.

Results

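The cells described here were picked out of single-cell RNA-seq libraries by the messages of proteins that granulocytes store in their granules. A cell entered when at least 2 of the 8 genes Elane, Prtn3, Ctsg, Mpo, Ms4a3, Ngp, Camp and Ltf were detected and when these genes together gave at least 10 of every 10000 of its unique molecular identifiers (UMIs, each 1 captured RNA molecule). S100a8 and S100a9 were not used for the choice, because their RNA was also found in droplets of other cells. The rule picked 932 of the 44168 retained cells. A cell was retained with 2000 or more UMIs and 1000 or more genes, when the 13 protein genes of the mitochondrial genome gave less than 25% of its UMIs. These 932 are called gated cells below, and the levels of the 8 genes in them describe the choice and are no finding.

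The libraries came from the aorta-gonad-mesonephros region (AGM) of mouse embryos (C57BL/6J, given as the genotype) at E11.5, where the first blood stem cells arise from the vessel wall. Cells carrying CD31 (Pecam1), a surface protein of endothelium and early blood cells, were sorted by TMRM, a dye that collects in active mitochondria, into cells of low (MMPlow) and of high potential (MMPhigh). Both fractions shared this genotype and age and were used freshly sorted, with no treatment named beyond the dye, and each was run as 2 droplet libraries. The question behind the comparison is how cells that differ in mitochondrial activity differ in their transcripts. Nothing in the labels says that the libraries of a fraction came from separate embryos, so p-values measure only the spread between these libraries, which may be technical.

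Granulocytes make their granules in waves as they mature. At the promyelocyte stage they fill primary (azurophil) granules with serine proteases and myeloperoxidase, and at the myelocyte and metamyelocyte stages they fill secondary (specific) granules with lactoferrin, cathelicidin and other antimicrobial proteins. The factors C/EBPα, PU.1 and Gfi1 act early in this course and C/EBPε at the switch to secondary granules. In the embryo, blood cells of this lineage appear first from yolk sac progenitors and enter the AGM with the circulation.

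The retained cells numbered 16700 and 19579 in MMPlow and 4403 and 3486 in MMPhigh. MMPhigh 2 stood apart in depth: its retained cells outside the gate had a median of 23973 UMIs, against 3150.5 to 3750 in the other 3 libraries. The fractions also held different cells. Among retained cells outside the gate, 10 endothelial genes summed to 26.1 and 25.1 UMIs per 10000 in MMPlow and to 1.24 and 1.06 in MMPhigh, and 10 neural genes to 2.75 and 2.67 in the former and 19.8 and 24.5 in the latter. Pecam1, the gene of the CD31 used for the sort, had 276 and 263 of every 1000000 UMIs outside the gate in MMPlow and 24.7 and 22 in MMPhigh, so the marker was strong in MMPlow and weak in MMPhigh. Retained cells of different libraries shared 7 to 89 barcodes a pair, and gated cells shared 0.

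The 8 gate genes fall into the primary-granule group (Elane, Prtn3, Ctsg, Mpo, Ms4a3) and the secondary-granule group (Ngp, Camp, Ltf). The 250 bases before their RefSeq start sites (build GRCm38.p6) are shown for 4 of them, because the groups differed in the short motifs these windows hold. Capitals mark GGAAGT, a core bound by ETS factors such as PU.1, in the primary-granule genes, and TTGCNNAA, a form of the site bound by C/EBP factors, in the secondary-granule genes.
Elane, chr10:79886062-79886311, + strand: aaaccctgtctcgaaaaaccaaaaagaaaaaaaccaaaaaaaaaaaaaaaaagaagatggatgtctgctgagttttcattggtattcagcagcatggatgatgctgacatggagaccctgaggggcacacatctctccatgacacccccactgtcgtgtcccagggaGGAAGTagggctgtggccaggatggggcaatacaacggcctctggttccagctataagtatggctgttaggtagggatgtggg
Mpo, chr11:87793534-87793783, + strand: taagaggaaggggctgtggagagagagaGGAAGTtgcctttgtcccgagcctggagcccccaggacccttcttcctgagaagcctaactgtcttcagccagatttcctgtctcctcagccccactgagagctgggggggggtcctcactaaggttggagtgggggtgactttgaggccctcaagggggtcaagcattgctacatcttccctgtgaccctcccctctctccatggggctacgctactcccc
Ngp, chr9:110419558-110419807, + strand: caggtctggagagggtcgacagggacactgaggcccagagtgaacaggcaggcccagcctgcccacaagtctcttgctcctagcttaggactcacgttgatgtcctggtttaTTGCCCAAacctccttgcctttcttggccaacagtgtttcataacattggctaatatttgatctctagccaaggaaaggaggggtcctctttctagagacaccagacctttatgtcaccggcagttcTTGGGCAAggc
Ltf, chr9:111019042-111019291, + strand: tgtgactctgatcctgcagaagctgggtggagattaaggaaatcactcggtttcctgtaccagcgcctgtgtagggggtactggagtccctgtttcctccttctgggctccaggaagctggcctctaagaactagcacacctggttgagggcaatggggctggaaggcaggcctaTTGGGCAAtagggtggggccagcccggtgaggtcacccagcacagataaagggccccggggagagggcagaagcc
GGAAGT or its reverse complement stood in the windows of 5 of the 5 primary-granule gate genes and in 0 of the 3 secondary-granule ones, and 19.7% of the 32841 promoters in the table held it. TTGCNNAA, searched on both strands, occurred in the windows of Ngp and Ltf, in none of the other windows and in 9.57% of all promoters. No gate gene's window held both motifs. Both motifs were chosen after the sequences had been seen, and a match is a description and not a bound site.

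Most gated cells were chosen by myeloperoxidase and proteinase 3. Mpo, the peroxidase of primary granules, was detected in 848 of the 932 cells (91.0%) and Prtn3, a serine protease, in 825 (88.5%). The other primary-granule genes were detected in fewer cells. Ms4a3, a membrane protein of granulocyte and monocyte progenitors, was detected in 243 cells (26.1%), Elane, neutrophil elastase, in 180 (19.3%), and Ctsg, cathepsin G, in 20 (2.15%). Of the secondary-granule genes, Camp (cathelicidin) was detected in 263 cells (28.2%), Ngp (neutrophilic granule protein) in 136 (14.6%) and Ltf (lactoferrin) in 77 (8.26%). The label of granulocyte-lineage cells thus rested on Mpo and Prtn3 in most cells, and 397 cells held no gate gene but this pair. For comparison, Mpo was detected in 14.1%, Camp in 6.15% and Elane in 0.947% of 20478 cells that carried endothelial genes and should lack granule RNA, at a median of 3455.5 UMIs against 3221 in gated cells. Of these 20478 cells, 233 were themselves gated. In those of MMPlow 1 and 2 outside the gate, Mpo was detected in 13.2% and 13.4%, Camp in 4.36% and 6.99% and Elane in 0.544% and 0.980%.

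The gate asks for 2 of the 8 genes, so each gene had to come with another, and the pairs are given as a description. Of the 180 cells with Elane, 176 (97.8%) also had Mpo, 170 (94.4%) had Prtn3 and 104 (57.8%) had Ms4a3. All 20 cells with Ctsg had Prtn3, and 11 of them had Elane. Of the 77 cells with Ltf, 67 (87.0%) had Camp and 59 (76.6%) had Ngp, while 44 had Mpo. Genes of 1 group alone marked most cells: 618 had primary-granule genes only, 22 had secondary-granule genes only and 292 had both.

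Levels are given as CPM, the UMIs of a gene summed over the cells of a library and scaled to a total of 1000000. Elane (chromosome 10, 79886312 to 79888216) stood at 127 and 133 CPM in the gated cells of MMPlow 1 and 2 and at 567 and 129 in those of MMPhigh 1 and 2. Prtn3, its neighbour (chromosome 10, 79879667 to 79883174), stood at 1132, 1232, 2705 and 1656. Mpo (chromosome 11, 87793784 to 87804412) stood at 1861, 1559, 2024 and 1917. MMPhigh 1 was the highest library for all 3, and for Elane it was the only one apart. Ctsg (chromosome 14, 56099885 to 56102574) stood at 6.59, 9.47, 61.2 and 5.54, and Ms4a3 (chromosome 19, 11629499 to 11640851) stood at 142, 169, 570 and 179. The 4 deepest gated cells held 4.73% and 3.28% of all gated UMIs in the MMPlow libraries, 42.6% in MMPhigh 1 and 25.5% in MMPhigh 2. Values of the MMPhigh libraries therefore rest on few cells.

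The secondary-granule genes lie on chromosome 9, and Ngp and Ltf were lower in gated MMPhigh cells while Camp overlapped. Ngp (110419808 to 110423012) stood at 385 and 541 CPM in gated MMPlow cells and at 19.5 and 40.6 in gated MMPhigh cells. Ltf (111019292 to 111042766) stood at 161 and 131 against 0 and 0.923. Both genes were lower in each MMPhigh library than in each MMPlow library, and the fractions did not overlap for 60.7% of all genes tested either. Camp (109847377 to 109849456) stood at 519, 786, 865 and 304. The MMPhigh levels rested on few cells: 1 cell held 216 of 311 Camp UMIs in MMPhigh 1 and 1 held 329 of 330 in MMPhigh 2. Ngp had 7 UMIs in 2 cells of MMPhigh 1 and 44 in 1 cell of MMPhigh 2. No test is given for these genes in gated cells, because the choice of cells used them.

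**Figure D1:**
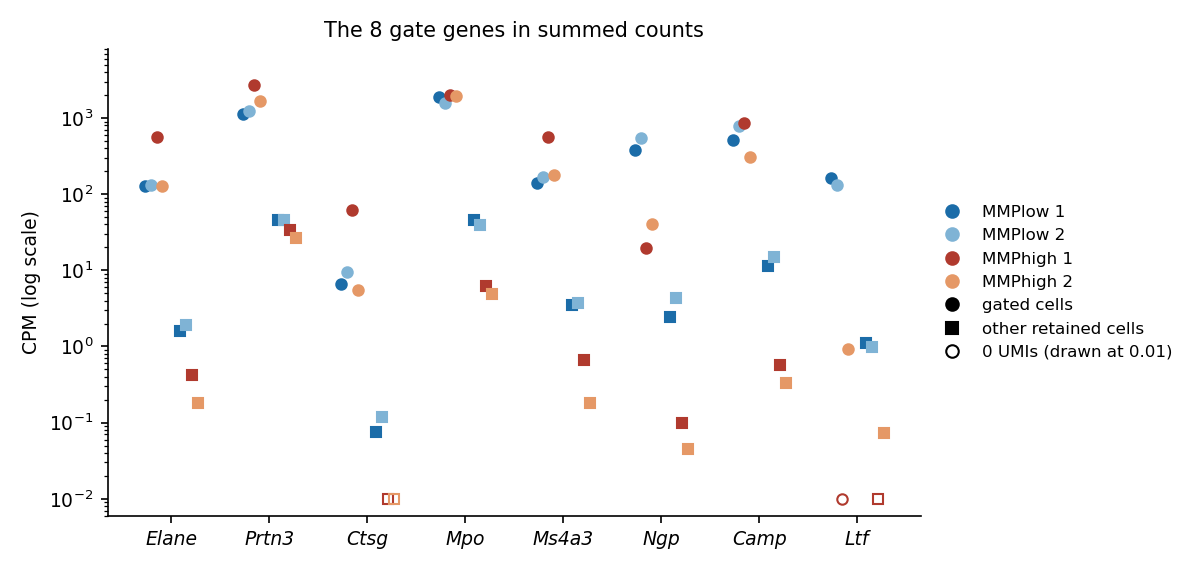
Summed counts as CPM (vertical, log scale) of the 8 gate genes (horizontal) in gated cells (circles) and in the other retained cells (squares) of the 4 libraries, with open symbols at 0 UMIs. Ngp lay at 385 and 541 in gated MMPlow cells and at 19.5 and 40.6 in gated MMPhigh cells, while Mpo lay between 1559 and 2024 in all 4.

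Among retained cells, gated cells held most of the Elane RNA but a smaller share of the Prtn3 RNA. Gated cells made up 0.861% to 2.60% of the retained cells. They carried 59.2% and 63.0% of the Elane UMIs in retained cells of MMPlow 1 and 2, and 92.3% and 87.5% of those of MMPhigh 1 and 2. For Mpo the shares were 42.8%, 49.3%, 73.9% and 79.4%, and for Prtn3 they were 31.3%, 39.9%, 41.5% and 38.1%. Prtn3 outside the gate was carried in part by cells whose highest list was that of macrophages, at 87.9, 86.0, 61.1 and 59.5 CPM. In the GENCODE annotation the Prtn3 model overlaps the 5′ part of the neighbouring gene Plppr3 on the other strand. Prtn3 counts are therefore uncertain in gated cells as well as outside the gate. Outside it, cells whose highest list was neural held Prtn3 in 12.8% and 28.8% in MMPhigh 1 and 2. Mpo was detected in 2.92% and 2.98% of them. Of the gated cells, 397 held no gate gene but Prtn3 and Mpo, 32 of the 54 in MMPhigh 1 among them.

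The gate also passed cells of other kinds, which sets its background. Cells were assigned to the gene list with the highest sum among 12 lists of other cell types, also when they were gated. Of the 20478 endothelial-list cells, 233 were gated (1.14%, 95% exact binomial interval 1.00% to 1.29%), and of 5430 macrophage-list cells 101 were gated (1.86%). Of 3099 progenitor-list cells, which express genes such as Kit, Cd34 and Myb, 304 were gated (9.81%, interval 8.78% to 10.9%). The highest share was in mast- and basophil-list cells, where 11 of 60 were gated (18.3%). At least 1 UMI of Mpo was found in 36.7% of progenitor-list cells, the gated ones included. Outside the gate it was found in 26.8%, 32.5%, 27.2% and 37.2% of those of MMPlow 1 and 2 and MMPhigh 1 and 2. Mpo alone thus did not separate the gated cells from progenitors. Intervals in this text cover counting error only.

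The kinds of cell that were gated differed between the fractions. Endothelial-list cells made up 28.1% and 27.1% of the gated cells of MMPlow 1 and 2 and 0 of 54 and 0 of 30 in MMPhigh 1 and 2, where only 40 and 17 endothelial-list cells were retained. Macrophage-list cells made up 8.58% and 9.61% of gated MMPlow cells and 35.2% and 13.3% of gated MMPhigh cells. Neural-list cells made up 25.9% of the gated cells of MMPhigh 1 and 3.33% or less in the other libraries. Progenitor-list cells were 33.7%, 33.3%, 9.26% and 50%, and cells with no other list 22.5%, 20.6%, 27.8% and 33.3%.

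The share of gated cells among retained cells was 2.02% in MMPlow 1 (exact binomial interval 1.82% to 2.25%), 2.60% in MMPlow 2 (2.39% to 2.84%), 1.23% in MMPhigh 1 (0.923% to 1.60%) and 0.861% in MMPhigh 2 (0.581% to 1.23%). Both MMPhigh libraries lay below both MMPlow libraries. The mean share was 2.31% ± 0.411 (SD, n = 2) for the MMPlow libraries and 1.04% ± 0.259 (SD, n = 2) for the MMPhigh libraries, which differ by -1.27 percentage points, with a two-sided exact permutation p of 0.33, the smallest that 2 against 2 libraries allow. Without MMPhigh 2, the deep library, the difference was -1.09 points. A deep cell needs more molecules to enter the gate. With every cell thinned to 2000 UMIs before the gate, the shares of the 4 libraries, in the same order, were 3.51%, 4.13%, 1.43% and 0.889%. Without gated cells in which 3 or more endothelial genes were detected, the shares were 1.06%, 1.24%, 1.18% and 0.602%. The fractions then overlapped, with a difference of -0.256 points (exact permutation p = 0.667). That filter took 2 of 54 gated cells from MMPhigh 1 and 9 of 30 from the deep MMPhigh 2, and the part of depth in it was not tested. In MMPlow it left 177 of 338 and 242 of 510 gated cells. The fits without such cells below rest on these smaller numbers, and the part of cell number in them was not tested.

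**Figure D2:**
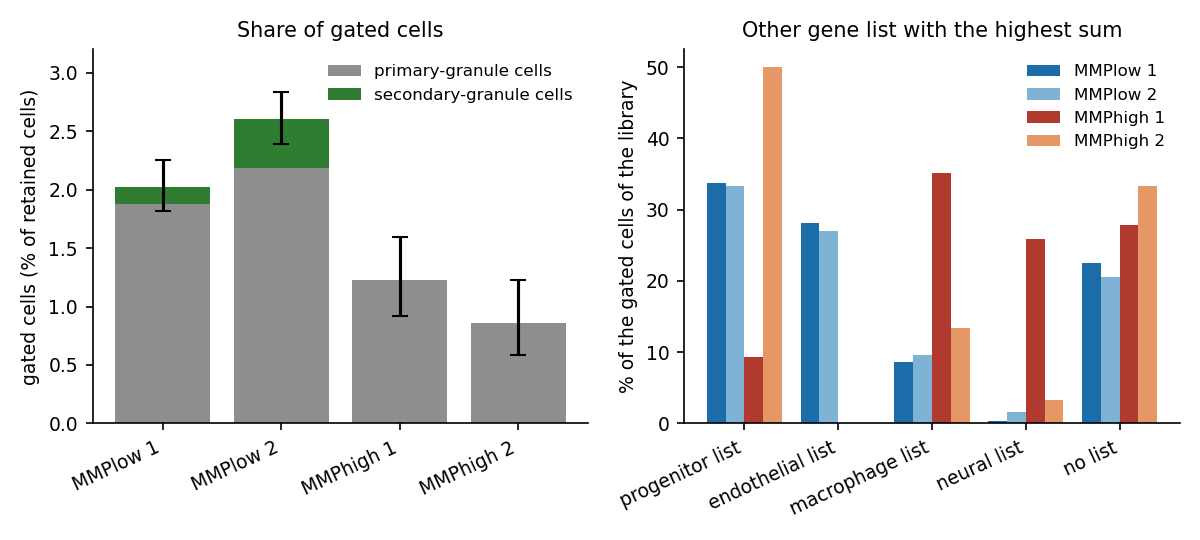
Left, gated cells as a percentage of retained cells in each library, split into primary-granule (grey) and secondary-granule cells (green), with 95% exact binomial intervals of the whole share. Right, the other gene list with the highest sum in the gated cells of each library, where endothelial-list cells are 28.1% and 27.1% in MMPlow and none in MMPhigh.

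Cells in which secondary-granule genes outweighed primary-granule genes were found in both MMPlow libraries, and none was found among the fewer gated cells of MMPhigh. A gated cell was called a secondary-granule cell when Ngp, Camp and Ltf together had more UMIs than the 5 primary-granule genes, and a primary-granule cell otherwise. Such cells numbered 24 of 338 in MMPlow 1 (7.10%, interval 4.60% to 10.4%) and 83 of 510 in MMPlow 2 (16.3%, interval 13.2% to 19.8%). There were 0 of 54 in MMPhigh 1 and 0 of 30 in MMPhigh 2, which allows a share of up to 5.56% and 10.0% when 3 cells are taken as the limit, and of up to 6.60% and 11.6% by the exact binomial interval. Over both libraries of a fraction, 107 of 848 gated MMPlow cells and 0 of 84 gated MMPhigh cells were secondary-granule cells. The MMPlow libraries differed from each other, and cells are not replicates of a fraction, so no interval is given for the pooled counts. The library means differed by -11.7 points, also without MMPhigh 2, and no test is read from this difference because the kinds are made from the gate genes. The rule weighs 1 group against the other, so a cell rich in secondary-granule RNA could still count as a primary-granule cell. Such cells were found in MMPhigh: 1 gated cell held 216 of the 311 Camp UMIs in MMPhigh 1 and 1 held 329 of 330 in MMPhigh 2.

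RNA of the secondary-granule genes outside the gate differed between the fractions as well. Camp stood there at 11.3 and 14.8 CPM in MMPlow and at 0.564 and 0.335 in MMPhigh, and it was detected in 4.46% and 6.82% of the MMPlow cells outside the gate and in 0.529% and 1.01% of those of MMPhigh. Of the 107 secondary-granule cells, 52 had a gate sum of 10 to 20 and 30 had one of 100 or more. With a gate sum of at least 50, secondary-granule cells were 18.4% and 26.7% of the gated MMPlow cells, and there were 0 of 5 and 0 of 11 in MMPhigh. The part of this background in the difference was not tested.

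Gated cells ranged from cells with a trace of granule RNA to cells rich in it. The 8 genes gave 10 to 20 UMIs per 10000 in 462 cells (49.6%), 20 to 50 in 273 (29.3%), 50 to 100 in 103 (11.1%) and 100 or more in 94 (10.1%), with a highest value of 622. Just inside the threshold, 138 cells lay between 10 and 12, and just outside it 446 lay between 8 and 10. A further 176 cells had a sum of 10 or more from 1 gene alone and stayed outside, 135 of them with Mpo. Cells were thus found on both sides of the threshold without a gap. The threshold is a share of a cell's UMIs, so a shallow cell entered on few molecules while a deep cell needed more. Near it, the sums of shallow cells rest on small whole-number counts, and the part of this in the 446 and 138 cells was not tested. Gated cells had a median of 36716.5 UMIs in the deep MMPhigh 2, against 2866 to 3468.5 in the other libraries, so the gate asked for more molecules there.

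Elane, Ms4a3 and Ctsg are terms of this sum, so their order over the ranges describes the split and is no result. Elane was detected in 7.36% of the cells at 10 to 20, in 14.7% at 20 to 50, in 38.8% at 50 to 100 and in 70.2% at 100 or more. Ms4a3 was detected in 10.2%, 26.4%, 53.4% and 73.4% of them, and Ctsg, which was near 1% in the 3 lower ranges, in 12.8% of the highest. Cebpe, the gene of C/EBPε, was not in the sum, and it was detected in 3.46%, 6.59%, 22.3% and 37.2% of the cells of the 4 ranges. S100a8, a subunit of calprotectin and not in the sum either, stood at 162, 372, 618 and 11105 CPM. Median depth was 2995.5, 3450, 3044 and 3549.5 UMIs over all libraries. Within MMPhigh the ranges differed in depth, since cells at 100 or more had a median of 28911 UMIs in MMPhigh 1, against 3251.5 in all its gated cells, and of 16115 in MMPhigh 2, against 36716.5.

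Macrophage and endothelial genes were lower at the upper end of the range, while eosinophil genes were higher there. Endothelial-list cells were 32% of the lowest range and 16.0% of the highest, and macrophage-list cells were 65 of 462 and 3 of 94. Of the highest range, 46 cells (48.9%) had no list of another cell type, and 30 of its 94 cells were secondary-granule cells. Summed over 10 macrophage genes, the level was 7.95 UMIs per 10000 in the lowest range and 2.02 in the highest, against 11.8 in cells outside the gate. The median per cell was 3.77 in the lowest range and 1.95 in the highest, but 1.62 outside the gate, so sum and median differ in their order against the outside cells. The 10 endothelial genes summed to 9.57 in the lowest range and to 4.17 in the highest, and the 7 eosinophil genes to 0.398 and 7.89. The 10 progenitor genes were highest in the middle of the range, at 10.7, 14.6, 15.7 and 7.42 UMIs per 10000. Genes of S phase stood at 21.8, 20.6, 23.9 and 24.0 UMIs per 10000, against 17.4 outside the gate. Ptprc, the pan-leukocyte antigen CD45, was detected in 50.4% of the cells of the lowest range and in 62.6% to 64.1% of the others.

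**Figure D3:**
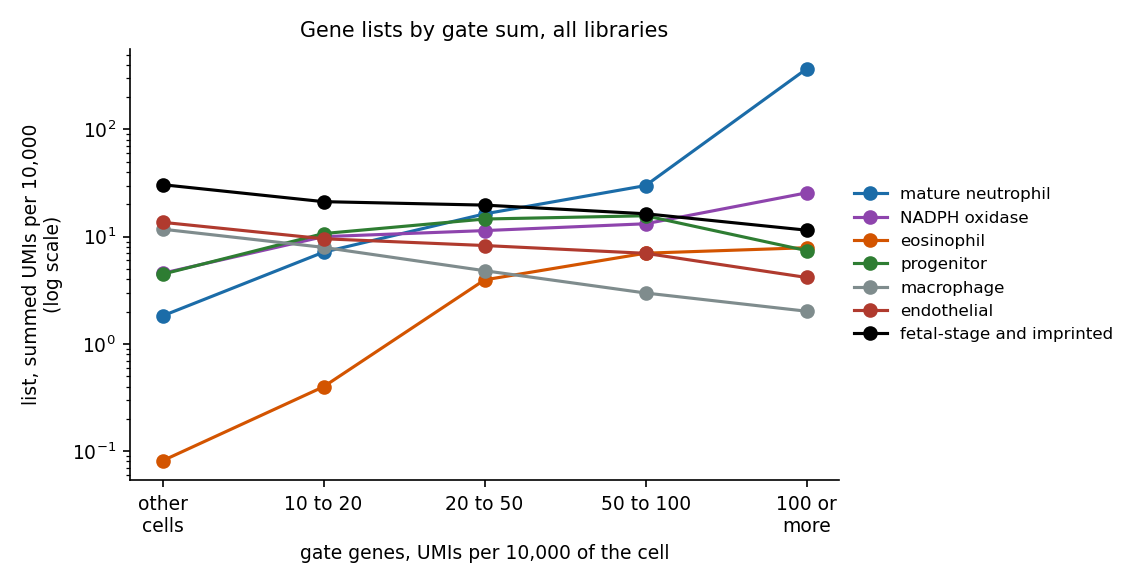
Summed UMIs per 10000 (vertical, log scale) of 7 gene lists in cells outside the gate and in gated cells by their gate-gene sum (horizontal), over all 4 libraries. The mature neutrophil genes go from 7.17 in the lowest range to 368 in the highest, while the macrophage genes go from 7.95 to 2.02.

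Of 11550 genes, 27 (0.234%) were at least 4-fold higher in gated cells than in the other retained cells in all 4 libraries. This contrast was used by the choice, so it is a description. Among the 25 genes with the highest smallest ratio, Atp8b4, a phospholipid flippase subunit, led with 570, 601, 520 and 259 CPM against 12.3, 11.9, 2.16 and 2.46 outside. Hp, haptoglobin, stood at 475, 502, 567 and 403 in gated cells, and Fcnb, the ficolin of granulocyte precursors, at 91.4, 95.1, 94.5 and 103. Atp8b4 was lowest in MMPhigh 2, and Hp and Fcnb overlapped between the fractions. The Fcnb level of MMPhigh rested on few cells, since 6 of 54 cells held all 34 UMIs in MMPhigh 1 and 1 of 30 held all 112 in MMPhigh 2, against 45 and 73 cells with Fcnb in MMPlow. Gria3, a glutamate receptor subunit, stood at 863, 902, 573 and 627 against 64.1, 66.6, 48.7 and 47.0 outside.

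Others of the 25 are known from maturing neutrophils. S100a9, the other calprotectin subunit, stood at 2218, 1648, 3647 and 1134 CPM, Olfm4, a secondary-granule protein, at 460, 511, 481 and 150, and Stfa1, a cystatin of the stefin A cluster, at 1725, 1621, 3586 and 981. Cstdc4, Cstdc5 and Stfa2l1 belong to the same cluster of near-identical genes, so how reads were split among them is uncertain. The group also held Pglyrp1 and Lcn2, both antimicrobial granule proteins, Serpinb1a, an inhibitor of elastase, and Srgn, the proteoglycan core that binds granule proteases. Anxa1, Hdc, Gda, Rab44, Olr1, Gpr141, Emb, Igsf6, Dgkg and F630028O10Rik completed it with S100a8.

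A few cells held much of this RNA. The 10 richest gated cells held 62.3% of the S100a8 and 57.0% of the Lcn2 UMIs of all 932 cells, but only 14.5% of those of Atp8b4, 12.8% of Gria3 and 19.4% of Hp. These shares over all gated cells mostly describe MMPlow. In MMPhigh 1 and 2 the 10 richest cells held 90.4% and 87.5% of the Atp8b4, 84.0% and 67.9% of the Gria3 and 88.2% and 79.2% of the Hp UMIs. S100a8 was detected in 4 of 54 and 2 of 30 gated MMPhigh cells, and a single cell held 1232 of its 1234 UMIs in MMPhigh 2.

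S100a8 outside the gate differed between the fractions. Cells outside the gate had 85.8 and 80.4 CPM of S100a8 in MMPlow and 0.466 and 0.181 in MMPhigh. Of its UMIs in retained cells, gated cells accordingly held 28.4% and 31.7% in MMPlow and 98.3% and 98.4% in MMPhigh. Lcn2, by contrast, was held by gated cells at 61.2% and 66.1% in MMPlow and at 100% and 98.9% in MMPhigh. Whether the S100a8 RNA outside gated MMPlow cells was free RNA was not tested.

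The lists of the lineage are given by counts, again as a description. Over all 11550 genes, 17.7% were higher and 31.2% lower in gated than in other cells in each of the 4 libraries. All 6 measured subunits of the NADPH oxidase, which makes superoxide for killing in the phagosome, were higher in all 4, with a median log2 ratio of 1.56 against -0.06 over all genes. The same held for 10 of 10 primary-granule genes and 5 of 5 secondary- and tertiary-granule genes outside the gate, and for 11 of 12 mature neutrophil genes. Only genes with at least 10 CPM in gated or other cells of a library were counted, so a rare gene could enter through gated cells alone. The data held 16 secondary- and tertiary-granule genes, 3 of them gate genes, and 21 mature neutrophil genes. Of those left out, gated cells held 8, 19, 2 and 3 of the 21, 28, 2 and 3 retained UMIs of Itgb2l. They held 0, 2, 0 and 0 of the 39, 32, 22 and 33 of Mmp9, and 0 of the 42, 41, 124 and 393 of Il1b. Of the myeloid transcription factors, 10 of 13 were higher and 2 lower, and of the cytokine and chemotactic receptors 10 of 14 were higher. By contrast, 0 of 10 macrophage genes were higher and 8 of 8 neural genes were lower. Against macrophage-list cells, 10 of 10 macrophage genes were lower in gated cells (19.1% of all genes) and 9 of 9 progenitor genes were higher (24.1%). Against progenitor-list cells, the same 10 macrophage genes were all higher (17.6% of all genes) and 7 of 9 progenitor genes were lower (28.7%). Macrophage-list and progenitor-list cells were assigned by sums of these same lists, so the assignment fixed these directions and nothing is read from them. The NADPH oxidase did not set gated cells above macrophage-list cells. Of its 6 genes, 2 were higher and 4 lower than there in all 4 libraries, with a median log2 ratio of -0.17. Of 15 receptors 7 were higher and 7 lower against macrophage-list cells, and of 12 myeloid transcription factors 6 were higher and 3 lower. At the 4-fold threshold in all 4 libraries, 29 genes (0.265%) stood above macrophage-list cells, Angpt1 and Syne1 among them, and 23 (0.206%) above progenitor-list cells, Lyz2 and Clec12a among them.

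Among the receptors, Csf3r, the G-CSF receptor that drives granulocyte production, stood at 67.5, 64.6, 72.3 and 64.6 CPM in gated cells. Csf2rb, the common β chain of the receptors for GM-CSF, IL-3 and IL-5, stood at 87.3, 82.2, 72.3 and 76.6, and Itgam, the CD11b integrin chain, at 111, 106, 83.4 and 75.7. Csf3r and Csf2rb varied little between the libraries. Cxcr2, a chemokine receptor of mature neutrophils, stood at 22.2, 24.5, 13.9 and 24.0. Ly6g, Chil3 and Retnlg, genes of maturing or mature neutrophils, had 0 UMIs in gated cells of all 4 libraries. Over all retained cells, however, Ly6g had only 1, 0, 0 and 0 UMIs, Retnlg 2, 3, 1 and 0, and Chil3 0 in each library. Their absence from gated cells therefore cannot be read.

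Within the gate, secondary-granule and primary-granule cells differed in 2 sets of genes, which can be described in MMPlow only. Of 11655 genes, 24 (0.206%) were at least 4-fold higher in secondary-granule cells in both MMPlow libraries, and 8 (0.0686%) were at least 4-fold higher in primary-granule cells. Both kinds were defined from gate genes of the same cells, so no test is given. Lcn2 led, at 2743 and 2010 CPM in secondary-granule cells against 20.4 and 16.8 in primary-granule cells. S100a8 stood at 19474 and 7252 against 528 and 630, and S100a9 at 23730 and 9065 against 607 and 530. Stfa3, Stfa2, Stfa2l1, Cstdc4 and Cstdc5 of the stefin A cluster, Pglyrp1, Olfm4, Wfdc21, Lyz2 (lysozyme), C3 (complement component 3), Ly75 and Adpgk were the others among the first 15.

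Of the 6 NADPH oxidase genes, 4 were higher and 0 lower in the secondary-granule cells of both MMPlow libraries, beside 23.2% higher and 33.2% lower over all genes. Of the 18 receptors, 4 were higher and 8 lower. Cybb, the catalytic subunit of the NADPH oxidase, stood at 544 and 414 CPM against 63.7 and 91.7 in primary-granule cells, and Itgam at 272 and 207 against 99.2 and 90.7. Cebpe stood at 142 and 135 against 30.1 and 45.1. Of the gate genes, Mpo was lower in secondary-granule cells (260 and 394 against 1981 and 1734), and Prtn3 less so (709 and 1054 against 1163 and 1259). Both genes are terms of the split between the kinds, so these values describe the split and are no result.

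Of 9 progenitor genes measured, 8 were lower in secondary-granule than in primary-granule cells in both MMPlow libraries and 1 was higher, beside 33.2% lower and 23.2% higher over all genes. Of this list, Kit, the stem cell factor receptor, stood at 101 and 82.2 CPM in primary-granule cells against 23.6 and 32.8. Runx1, a factor outside this list that is needed for the emergence of blood stem cells, stood at 845 and 746 against 296 and 381. Gria3, which was in none of the lists, stood at 921 and 1021 CPM against 94.6 and 115 in secondary-granule cells. The other genes at least 4-fold higher in primary-granule cells were Angpt1 (angiopoietin 1), Ikzf2 (Helios), Cpa3 (carboxypeptidase A3), Nrg1, Gm15261, Zbtb16 (PLZF) and Prg3, an eosinophil granule protein. Irf8, a factor of the monocyte lineage, stood at 63.7 and 59.9 against 0 and 9.85.

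**Figure D4:**
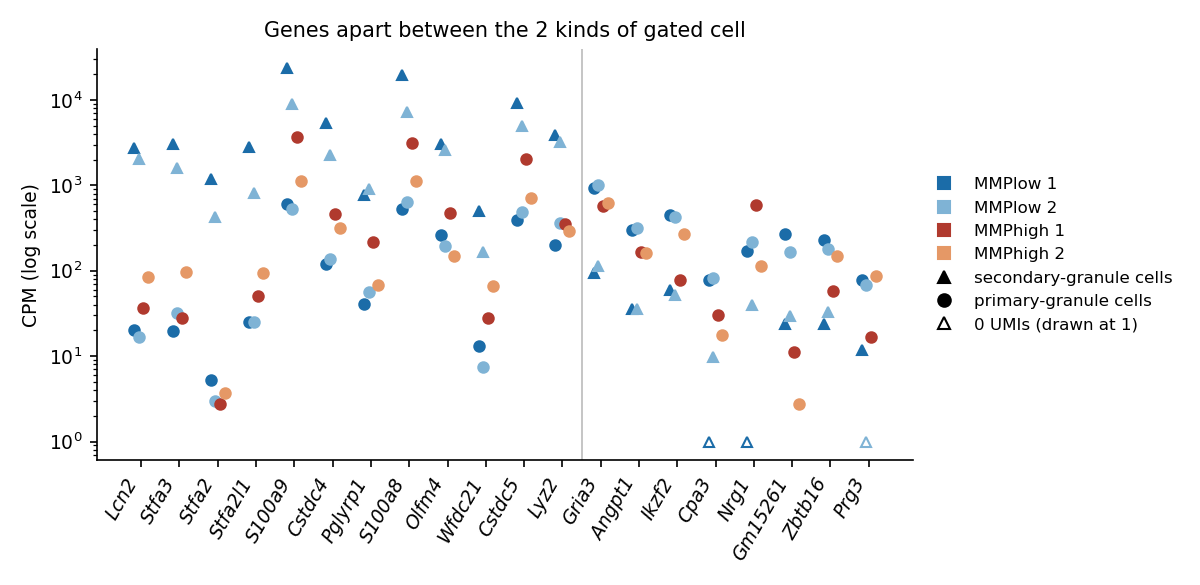
CPM (vertical, log scale) of the 12 genes highest in secondary-granule cells (left of the line) and the 8 highest in primary-granule cells (right), by library, with triangles for secondary-granule and circles for primary-granule cells and open symbols at 0. Lcn2 lay at 2743 and 2010 in secondary-granule cells of MMPlow and between 16.8 and 84.0 in primary-granule cells of the 4 libraries.

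Mitochondrial RNA differed between gated cells of the fractions. The median share of UMIs from the 13 mitochondrial genes was 6.40% and 5.86% in gated MMPlow cells and 3.15% and 3.55% in gated MMPhigh cells, against 4.07%, 4.36%, 3.30% and 3.66% in the other cells of the 4 libraries. Gated MMPlow cells lay above and gated MMPhigh cells just below the other cells of their library. The mean of these medians was 6.13% ± 0.387 (SD, n = 2) for the MMPlow libraries and 3.35% ± 0.276 (SD, n = 2) for the MMPhigh libraries, which differ by -2.78 points (exact permutation p = 0.33). In MMPlow, primary-granule cells had medians of 6.50% and 6.29% and secondary-granule cells of 4.95% and 3.79%. Without MMPhigh 2 the difference was -2.98 points. With cells of at least 5000 UMIs it was -0.0385 points, and with cells of at least 1000 UMIs and 500 genes it was -0.0988 points, both with an exact permutation p of 1. In the latter setting MMPlow 1 had a median of 0.820%, below the MMPhigh medians of 3.17% and 3.55%. MMPlow 2, at 6.09%, lay above them. The small difference there averages MMPlow libraries on opposite sides of MMPhigh, so it does not show that the fractions were alike.

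Counts summed over the gated cells of each library were compared between the fractions with edgeR's quasi-likelihood test, adjusted over all genes by Benjamini-Hochberg. Of 9996 genes, 1633 passed (16.3%), with 786 higher (7.86%) and 847 lower (8.47%) in MMPhigh. All 10 endothelial genes were lower, with a median log2 fold of -5.29 against -0.03 over all genes. Cdh5, the cadherin of endothelial junctions, stood at 113 and 87.8 CPM in MMPlow and had 0 UMIs in both MMPhigh libraries. Cldn5, Lama4, Dysf, Klhl4, Aplnr, Col15a1, Pard3bos1, Gm4876 and Tmem255a, the other genes with the largest negative folds, also had 0 UMIs there. All 7 neural genes tested were higher, with a median of 2.01, and 0 of 7 passed without the 6% of cells with the highest Scrublet doublet scores (median 1.05, with 7.34% of all genes called) or without gated cells that carried endothelial genes (median 1.06, with 1.48% called). The neural sum was 1.32 and 1.45 UMIs per 10000 in gated MMPlow cells and 5.84 and 4.01 in gated MMPhigh cells, beside 2.75, 2.67, 19.8 and 24.5 outside the gate. The part of such cells in the gene differences was not tested. Without gated cells in which 3 or more endothelial genes were detected, 120 of all genes passed, and without MMPhigh 2 1010 passed.

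Of 45 lineage genes outside the gate, 26 could be tested, 1 was higher, 2 were lower and 23 did not pass, a share near the 16.3% over all genes. The count depended on the library, with 11 higher and 4 lower of 27 without MMPhigh 2, where 9.23% of all genes passed, and 4 higher and 5 lower of 27 without MMPhigh 1, where 24.3% passed. The median log2 fold of the 26 was 0.28, against -0.03 over all genes. Srgn stood at 515 and 669 CPM in MMPlow and at 1162 and 972 in MMPhigh, without overlap, as for 60.7% of all genes tested (log2 fold 1.01, SE 0.208, edgeR quasi-likelihood adjusted p = 0.00277). Lcn2 stood at 210 and 278 against 36.1 and 84.0 (log2 fold -1.70, SE 0.308, edgeR adjusted p = 0.00578), and Stfa2 at 87.3 and 58.1 against 2.78 and 3.69 (log2 fold -4.16, edgeR adjusted p = 5.38e-06). Without gated cells carrying 3 or more endothelial genes, 0 of the 26 passed, beside 1.48% of all genes, so nothing is read from this count. Srgn did not pass without MMPlow 1 (edgeR adjusted p = 0.0577), and Lcn2 did not without MMPlow 2 (0.0525). In primary-granule cells alone the order of the fractions for Lcn2 turned, at 20.4 and 16.8 CPM in MMPlow and 36.1 and 84.0 in MMPhigh (log2 fold 2.04). This split took cells from MMPlow only and chose them by granule RNA, so no test is read from it. Secondary-granule cells held 232 of the 255 and 612 of the 646 Lcn2 UMIs of gated MMPlow cells. In MMPhigh, 3 cells of each library held all Lcn2 UMIs, and in MMPhigh 2 a single cell held 88 of the 91 UMIs.

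Fcnb, Hp, S100a8 and S100a9 did not pass with all 4 libraries. Without MMPhigh 2, S100a8 and S100a9 had log2 folds of 1.05 and 1.07 (edgeR adjusted p = 0.00292 and 0.0028), and without MMPhigh 1 their log2 folds were -0.34 and -0.56 and did not pass. With a library left out, 1 arm of the fit holds a single library that is assumed to vary like the others, and in MMPhigh 1 the same number of cells, 4 of 54, held all 1122 UMIs of S100a8 and all 1312 of S100a9. No difference between the fractions is read from these folds. Fcnb stood at 91.4, 95.1, 94.5 and 103 CPM (log2 fold 0.27, edgeR adjusted p = 0.411) and Hp at 475, 502, 567 and 403 (log2 fold 0.14, edgeR adjusted p = 0.697). Of the 14 receptors tested, 0 passed, beside 16.3% of all genes, including Csf3r (log2 fold 0.20, SE 0.232).

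Among the regulators, Cebpe, Spi1 and Irf8 were higher in gated MMPhigh cells and Mecom was lower, of 12 tested, beside 16.3% called over all genes. Cebpe stood at 37.9 and 56.8 CPM in MMPlow and at 131 and 80.3 in MMPhigh (log2 fold 1.19, SE 0.274, edgeR adjusted p = 0.00816). It was detected in 20 of 338 and 59 of 510 gated MMPlow cells and in 3 of 54 and 10 of 30 gated MMPhigh cells, so its level in MMPhigh 1 rested on 3 cells, and without the 4 deepest cells of that library its adjusted p was 0.14. Spi1, the gene of PU.1, stood at 151 and 185 against 256 and 329 (log2 fold 0.98, edgeR adjusted p = 0.00299), and Irf8 at 59.3 and 53.4 against 83.4 and 131 (log2 fold 1.19, edgeR adjusted p = 0.00185). In each of the 3 the fractions did not overlap, as for 60.7% of all genes. Cebpe and Spi1 did not pass without MMPlow 1 (edgeR adjusted p = 0.125 and 0.105), and Irf8 did not without MMPlow 2 or MMPhigh 2 (0.0877 and 0.167). Of 10 macrophage genes tested in the same sums, C1qc (28.0 and 30.1 CPM against 145 and 55.4, log2 fold 1.76, edgeR adjusted p = 0.0315) and Cx3cr1 (86.5 and 78.8 against 83.4 and 172, log2 fold 0.91, edgeR adjusted p = 0.0418) were higher and 0 lower. Without gated cells carrying endothelial genes their edgeR adjusted p was 0.0482 and 0.231. Spi1 was detected in 47.1% to 96.2% of the macrophage-list cells of the 4 libraries, and the part of such cells in these differences was not tested. For Cebpe, Spi1 and Irf8 without gated cells carrying endothelial genes, the log2 folds were 0.99, 0.81 and 0.97, with edgeR adjusted p of 0.112, 0.0996 and 0.0972. Mecom, a factor of stem cells and of endothelium, stood at 163 and 98.1 against 25 and 7.38 (edgeR adjusted p = 0.00389, and 0.378 without those cells). Of the NADPH oxidase, Rac2 (178 and 264 against 398 and 443, log2 fold 1.09) and Ncf4 (44.5 and 52.5 against 86.2 and 89.5, log2 fold 1.02) were higher and the other 4 did not pass. Their edgeR adjusted p rose from 0.00237 and 0.00578 to 0.0579 and 0.0814 without the cells that carried endothelial genes, and to 0.105 and 0.197 without MMPlow 1.

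Genes of energy metabolism that passed were mostly higher in gated MMPhigh cells. Of 78 nuclear genes of oxidative phosphorylation, 24 were higher and 0 lower (median log2 fold 0.50), beside 7.86% higher among all genes. Cox5b, a subunit of cytochrome c oxidase, stood at 261 and 356 CPM against 475 and 588 (log2 fold 0.96, edgeR adjusted p = 0.00523, and 0.102 without gated cells carrying endothelial genes). Of 15 glycolytic genes, 7 were higher (Gpi1, Tpi1, Gapdh, Pgk1, Pgam1, Eno1 and Pkm) and 1, the glucose transporter Slc2a1, was lower. Gapdh stood at 533 and 713 against 1457 and 1997 (log2 fold 1.64, edgeR adjusted p = 7.3e-05). Without MMPlow 1 the count of oxidative phosphorylation genes was 0, where 1.27% of all genes were higher (median log2 fold of the list 0.41), and without MMPhigh 1 it was 53, where 12.2% were. Without gated cells carrying endothelial genes it was 0 with a median of 0.42, beside 0.542% higher among all genes, where 2 of the 15 glycolytic genes were higher and 0 lower. In sums of all retained cells, 23 of 81 oxidative phosphorylation genes were higher in MMPhigh and 0 lower, beside 27.2% higher among all genes. Of 16 glycolytic genes there, 6 were higher, Gapdh among them, and 3 lower, Slc2a1 among them. The direction was thus not particular to gated cells, and the part of the whole fractions in it was not tested. Gapdh passed in all 20 settings tried for the gated sums, with log2 folds from 1.21 to 1.89.

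It was 1 of 29 genes that did so. Those higher in MMPhigh were Gapdh, Jun, Actb, Btf3, Cfl1 and Ube2c. Gapdh and Ube2c, which were in the gene lists, were also called higher in sums of all retained cells. Jun, an immediate early gene, stood at 53.5 and 47.4 CPM against 181 and 221 (log2 fold 2.20, edgeR adjusted p = 9.8e-07), and Actb, β-actin, at 3023 and 3532 against 8032 and 6994 (log2 fold 1.36). The other 23 were lower and included the endothelial genes Cdh5, Cldn5, Emcn, Kdr, Flt1 and Tek. Of the genes with the largest positive folds, Sst (somatostatin) had 0 UMIs in gated MMPlow cells and stood at 16.7 and 68.3 in MMPhigh, beside 3.43, 2.53, 46.5 and 49.0 outside the gate. Hspa1a, a heat shock protein, stood at 0 and 0.430 against 22.2 and 25.8. Others among them were Nxph1, Rgs1, Chl1, Galnt14, Gm26871, Tmem178 and Myt1l, which like Hspa1a were also higher in both MMPhigh libraries than in both MMPlow libraries outside the gate.

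**Figure D5:**
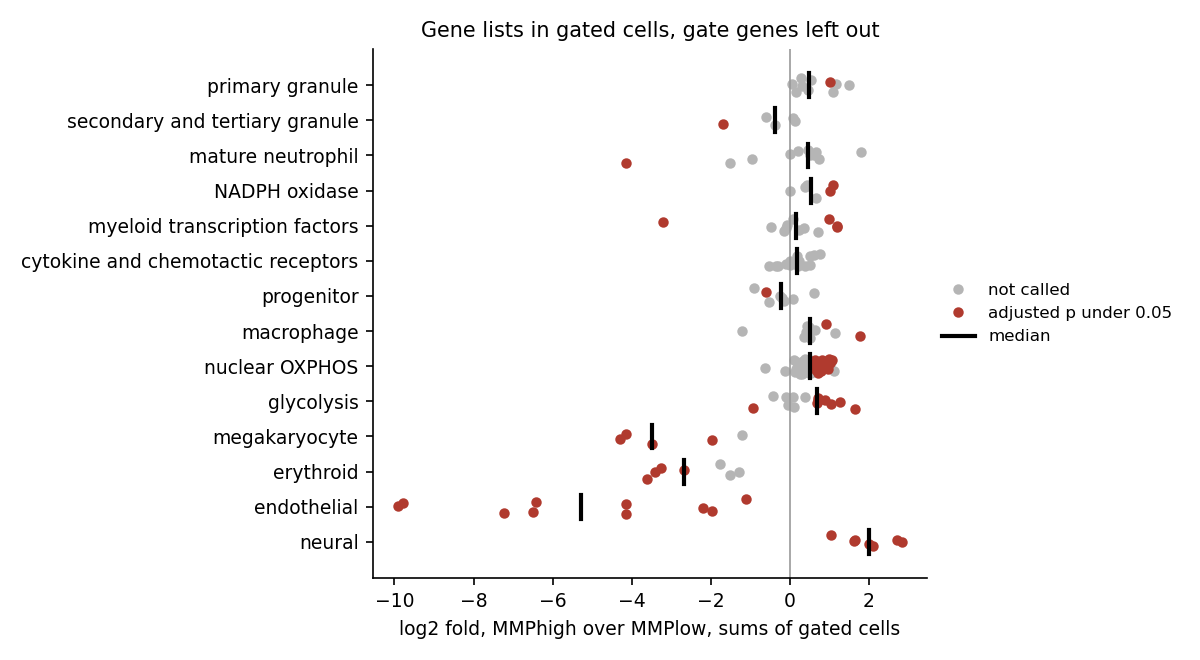
Log2 fold change of MMPhigh over MMPlow (horizontal) for the tested genes of 14 lists (vertical) in sums of gated cells, without the 8 gate genes, with red points for an edgeR adjusted p under 0.05 and black bars for medians. All 10 endothelial genes lie to the left (median -5.29) and all 7 neural genes to the right (median 2.01), while lineage genes lie on both sides of 0.

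Without the gate, the lineage genes were compared in counts summed over all retained cells, where fewer cells of a type and less RNA per cell cannot be told apart. Of 20593 genes, 54.0% passed edgeR's quasi-likelihood test, 27.2% as higher and 26.8% as lower in MMPhigh. Of 45 lineage genes tested, 26 were lower in MMPhigh, 7 were higher and 12 did not pass, with a median log2 fold of -1.06 against 0.01 over all genes. Ngp and Ltf, of the secondary granules, and Mpo were lower in MMPhigh. Ngp stood at 9.38 and 17.4 CPM in MMPlow and at 0.267 and 0.440 in MMPhigh (log2 fold -5.10, edgeR adjusted p = 0.000523), and Ltf at 4.01 and 4.14 against 0 and 0.0807 (edgeR adjusted p = 1.12e-05). Mpo stood at 78.7 and 76.7 against 23.9 and 23.5 (log2 fold -1.68, SE 0.083, edgeR adjusted p = 8.65e-07).

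The remaining gate genes were less clear. Camp fell by 2.29 on the log2 scale (edgeR adjusted p = 0.0335) and Prtn3 by 0.47 (edgeR adjusted p = 0.0498), and these calls were lost in 6 and 5 of the 12 alternatives tried. Elane stood at 3.88 and 5.11 CPM in MMPlow and at 5.37 and 1.44 in MMPhigh, with overlap (log2 fold -0.44, edgeR adjusted p = 0.64), and Ms4a3 and Ctsg did not pass either. S100a8 stood at 118 and 115 against 27.7 and 11.3 (log2 fold -2.57, edgeR adjusted p = 0.0175), a call lost in 5 of the 12, among them without MMPlow 1 (0.174) and without MMPlow 2 (0.25). The 7 lineage genes higher in MMPhigh were Ctsc, Calr, Clec12a, Csf3r, Il1b, Mxd1 and Cxcl2. Of these, Il1b had 0 UMIs in gated cells and stood at 6.47, 2.28, 10.9 and 14.4 in macrophage-list cells, and Csf3r stood at 52.8, 51.5, 70.9 and 74.5 there. In the same sums, 10 of 10 macrophage genes were higher in MMPhigh, beside 27.2% of all genes, and their part in the lineage values was not tested. Of 14 myeloid transcription factors in these sums, 3 were higher, Spi1 and Irf8 among them. A further 7 were lower, beside 26.8% of all genes, Mecom among them. Cebpe, which was higher in gated MMPhigh cells, was also among the lower ones here.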

How the data were processed

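The deposited matrices hold whole-number counts of UMIs per gene and cell barcode, not normalized, for 32285 features in each of 4 libraries made with 10x Genomics 3' chemistry v3 for at most 10000 cells a lane, per the labels' protocols. They were made with Cell Ranger 7.0.1 per the file headers, while the submitters' processing notes name Cell Ranger 2.1.1 and mm10. The gene annotation, and whether counting used strand, are not given in the sources used here. UMIs from the 3' end count molecules and were not scaled by gene length.

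The deposited counts totalled 51800709 to 120168395 UMIs a library, and 359704 to 2323015 in gated cells. Cells were filtered and gated as the report states. No doublets were removed, and 2 to 24 gated cells a library were among the 6% with the highest Scrublet scores. Levels are summed UMIs scaled to 1000000 (CPM). Ratios between cell kinds add 10 CPM and carry no test. Fractions were compared by two-sided exact permutation tests for single values and, for sums per library, by edgeR 4.0.16 (TMM, filterByExpr, robust quasi-likelihood, Benjamini-Hochberg, threshold 0.05) in R 4.3.3, with DESeq2 1.42.0 as an alternative. The analysis was checked on simulated data. Python 3.11.15, scanpy 1.11.5, scipy 1.17.1, pandas 2.3.3 and matplotlib 3.10.9 were used.

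The members, gene lists and tests were chosen with earlier results of these data known. Genes were named by list, and otherwise as the 25 highest smallest ratios against other cells, the 15 each way between kinds of gated cell, and the 10 largest folds each way among called genes without overlap between the fractions, of which one gene is not reported here. Genes called in every setting, and those whose cell numbers or top shares are given, were named after their values were seen.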

Additional observations from a re-analysis of the deposited data

How the results depend on the processing

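The difference in the share of gated cells kept its sign in all settings. It was -2.26 points with at least 1000 UMIs and 500 genes, -0.867 with at least 5000 UMIs, -3.81, -0.744 and -0.281 with gate sums of at least 5, 20 and 50 per 10000, -0.580 with at least 3 gate genes, -2.66 with every cell thinned to 2000 UMIs before the gate and -0.256 without gated cells with 3 or more endothelial genes. It ranged from -1.56 to -0.980 with each library left out in turn. No secondary-granule cell was found in MMPhigh in any setting, and the difference was -7.05 and -22.5 points with gate sums of at least 5 and 50, -19.4 with at least 3 gate genes and -16.3 to -7.10 with each library left out. The difference in mitochondrial share was -0.0988 points with at least 1000 UMIs and 500 genes, where the MMPlow medians of 0.820% and 6.09% lay on both sides of MMPhigh. It was -0.0385 with at least 5000 UMIs, -2.15 with a gate sum of at least 5, -2.26 with at least 3 gate genes, -3.24 without gated cells with endothelial genes and -3.05 to -2.51 with each library left out.

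Genes called in sums of gated cells numbered 504 by DESeq2, 778 with at least 1000 UMIs and 500 genes, 347 with at least 5000 UMIs, 391 with at least 3 gate genes, 249 and 4453 with gate sums of at least 20 and 5, 192 with each gated cell thinned to 2000 UMIs, 120 without cells with endothelial genes, 701 without the highest Scrublet scores, 615 without the 4 deepest gated cells of MMPhigh 1, and 372 to 2624 with each library left out (372 without MMPlow 1, 606 without MMPlow 2, 2624 without MMPhigh 1 and 1010 without MMPhigh 2). The fit with a gate sum of at least 50 was not run, because too few gated cells remained in MMPhigh 1. Lineage genes called in sums of all cells numbered 13 with a minimum of 10 CPM and 23 to 37 with each library left out. The uncalled fold of Elane in all cells ranged from -1.63 to 0.30 with each library left out, and turned to 0.30 without MMPhigh 2, and that of Ctsg, which ranged from -2.31 to 0.99, to 0.10 by DESeq2, 0.33 without MMPlow 2, 0.99 without MMPhigh 2 and 0.0177 with at least 5000 UMIs. The cause was not tested in any of these.

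Same-numbered libraries shared only a number, and their deviations correlated at 0.120 in gated sums and 0.0648 in all-cell sums over genes. With the replicate number as a block, 1711 genes were called in gated sums and 30 lineage genes in all-cell sums, the share difference was -1.27 points, and 5 of the 33 lineage calls in all cells were lost, those of Camp (adjusted p = 0.275 by edgeR), S100a8 (0.108), S100a9, Pglyrp1 and Stfa1. The thinned and primary-granule-only sums and the sums without the 4 deepest cells were chosen after the data had been seen. The number of gated MMPhigh cells limits the counts there, since 0 of 54 and 0 of 30 allow shares of up to 5.56% and 10.0% by 3 cells.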

Other observations

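Gated cells also carried RNA of eosinophil granules. Prg2, the major basic protein, stood at 254 and 206 CPM in gated MMPlow cells and at 5.56 and 130 in gated MMPhigh cells, against 9.32 and 6.63, and 0.392 and 0.109, in the other cells. Prg3, its homologue, stood at 73.3, 59.8, 16.7 and 86.7, and Epx, the eosinophil peroxidase, at 28.8, 13.3, 0 and 11.1. The fractions overlapped for Prg3, but 1 cell held 89 of its 94 UMIs in MMPhigh 2 and 1 cell held all 6 in MMPhigh 1. Prg2 was detected in 91 of the 932 gated cells (9.76%), Prg3 in 60 and Epx in 31, and the 10 richest cells held 63.2%, 65.2% and 67.9% of their UMIs. Over all 7 eosinophil genes the sum was 0.398 UMIs per 10000 in gated cells with a gate sum of 10 to 20, 3.95 at 20 to 50, 7.02 at 50 to 100 and 7.89 above, against 0.0813 outside the gate. In sums of gated cells, 0 of 5 eosinophil genes tested passed edgeR's quasi-likelihood test between the fractions, beside 16.3% of all genes.

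Mast cell genes were only partly present. Hdc, the histidine decarboxylase of mast cells, basophils and their progenitors, stood at 98.8, 96.9, 66.7 and 161 CPM in gated cells. Cpa3 was lower in gated MMPhigh cells, at 73.3 and 71.9 against 30.6 and 17.5 (log2 fold -1.58, edgeR adjusted p = 0.0018, and 0.0997 without gated cells with endothelial genes). Cma1, Mcpt4, Mcpt8, Tpsab1, Tpsb2 and Prss34, proteases of mature mast cells and basophils, had 0 UMIs in gated cells of all 4 libraries. Over all retained cells, Mcpt4, Tpsab1 and Tpsb2 had 0 UMIs too. Cma1 had 13, 4, 0 and 0 there, Mcpt8 8, 5, 0 and 0, and Prss34 1, 7, 3 and 21, so nothing is read from their absence in gated cells. Of the rest of the list, Ms4a2 had 9, 22, 0 and 17 UMIs in gated cells, Fcer1a 4, 3, 0 and 6, and Hgf 57, 72, 7 and 37.

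Gated cells held RNA of both sexes. Xist was detected in 47.1% and Y-linked genes in 38.4% of gated cells, with both in 9.98%, against 40.1%, 43.4% and 9.45% of the other cells. Y-linked UMIs per UMI of Xist were 0.376 and 0.392 in gated MMPlow cells and 0.6 and 0.629 in gated MMPhigh cells, against 0.543, 0.564, 0.492 and 0.544 in the other cells. Xist was lower in gated MMPhigh cells, at 420 and 348 CPM against 209 and 161 (log2 fold -0.91, edgeR adjusted p = 0.00558). Of 12 fetal-stage and imprinted genes, 0 were higher, 1 was lower and 11 did not pass, beside 16.3% called over all genes. Igf2, a fetal growth factor and the 1 that was lower, stood at 304 and 276 CPM in gated MMPlow cells and at 36.1 and 6.46 in gated MMPhigh cells (log2 fold -4.10, edgeR adjusted p = 0.00669), beside 442 and 445, and 121 and 70.5, in the other cells.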
